A study of Mus musculus with 43 samples.

Results

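The 48 genes described here encode the machinery that carries newly made proteins between the endoplasmic reticulum (ER) and the Golgi apparatus. They were taken by gene symbol from a fixed list, and all 48 were found among the 24327 symbols of the siRNA and guide RNA table and the 25080 symbols of the drug table. Each member stood on 1 line of its table, and all 48 passed the filter on low values in each of the 3 experiments. By role, 8 encode COPII coat proteins, 6 assemble the COPII coat at ER exit sites, 9 encode COPI coat proteins, 3 act in the Arf cycle, 17 are cargo receptors, and 5 are SNAREs or a tether.

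Polyadenylated RNA was sequenced from 43 samples of mouse embryonic fibroblasts (MEF). In the siRNA experiment, cells with control siRNA or with siRNA that knocks down Son received tunicamycin or its solvent DMSO, with 4 libraries in each of the 4 groups. In the CRISPR activation (CRISPRa) experiment, cells carried a control guide RNA (sgRNA) or a guide for Son, labelled as Son overexpression, again with DMSO or tunicamycin and with 3 libraries a group. In the drug experiment, wild-type cells were kept for 24 h in DMSO, in nintedanib or proflavine hemisulfate at 3 µM, or in ponatinib or pyrvinium pamoate at 1 µM, with 3 libraries a group. Son is a scaffold protein of nuclear speckles that aids splicing. Tunicamycin blocks N-linked glycosylation, which leaves unfolded glycoproteins in the ER. Nintedanib and ponatinib inhibit tyrosine kinases, proflavine is an acridine that binds DNA, and pyrvinium is an anthelmintic dye. For tunicamycin, dose and duration are not given, and neither are the mouse strain and the activator used with the guides, in the sources used here.

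Secretory cargo leaves the ER in vesicles coated with COPII. The small GTPase Sar1, loaded by its exchange factor Preb (Sec12), recruits the inner coat of Sec23 and Sec24, and Sec13 and Sec31 form the outer cage. COPI, a 7-part coatomer recruited by Arf GTPases, carries escaped ER residents and recycling receptors back from the Golgi. Cargo receptors such as Lman1, Surf4, the p24 proteins (Tmed genes) and the KDEL receptors link cargo in the lumen to these coats. Fibroblasts depend on the route to export collagen, and Mia3 (TANGO1) is known to load large collagens at exit sites.

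The promoters of 4 members are shown because they carry the 8-letter core of the unfolded protein response element, a sequence that the stress factors XBP1 and ATF6 are known to bind. They are the matching members with the highest tunicamycin response in control siRNA cells. Each window runs from 250 bases before to 50 bases after the RefSeq start site in GRCm38.p6 and is written 5′ to 3′ in the direction of transcription. Sec24d lies at chr3:123267246-123267545 on the plus strand, Stx5a at chr19:8741174-8741473 on the plus strand, Copb1 at chr7:114254631-114254930 on the minus strand and Sec23a at chr12:59011968-59012267 on the minus strand. Capitals mark the match, either TGACGTGG itself or CCACGTCA, the same core on the opposite strand.
Sec24d: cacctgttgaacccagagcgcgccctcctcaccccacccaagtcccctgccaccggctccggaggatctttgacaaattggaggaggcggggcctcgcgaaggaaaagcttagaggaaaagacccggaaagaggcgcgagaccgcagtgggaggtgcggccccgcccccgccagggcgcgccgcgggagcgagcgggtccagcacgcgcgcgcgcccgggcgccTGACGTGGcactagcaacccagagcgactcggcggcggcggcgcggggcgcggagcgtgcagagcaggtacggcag
Stx5a: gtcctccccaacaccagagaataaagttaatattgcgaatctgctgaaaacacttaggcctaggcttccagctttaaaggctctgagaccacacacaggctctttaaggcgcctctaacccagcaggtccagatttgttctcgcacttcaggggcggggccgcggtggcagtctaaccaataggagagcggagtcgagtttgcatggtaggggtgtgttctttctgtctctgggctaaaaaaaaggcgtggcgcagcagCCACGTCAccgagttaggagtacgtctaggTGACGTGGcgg
Copb1: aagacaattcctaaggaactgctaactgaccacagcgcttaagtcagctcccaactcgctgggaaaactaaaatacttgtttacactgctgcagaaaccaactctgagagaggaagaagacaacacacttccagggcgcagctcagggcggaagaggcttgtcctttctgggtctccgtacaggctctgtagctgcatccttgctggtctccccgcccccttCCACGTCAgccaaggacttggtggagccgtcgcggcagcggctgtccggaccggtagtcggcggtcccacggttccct
Sec23a: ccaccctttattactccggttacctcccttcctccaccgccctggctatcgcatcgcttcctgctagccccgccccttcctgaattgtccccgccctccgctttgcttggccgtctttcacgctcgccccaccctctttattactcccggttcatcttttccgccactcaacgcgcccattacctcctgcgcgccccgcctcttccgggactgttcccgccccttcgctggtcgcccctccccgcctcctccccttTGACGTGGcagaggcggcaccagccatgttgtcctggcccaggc

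RefSeq windows were matched by symbol for 43 of the 48 members, and Arcn1, Kdelr2, Lman1, Tmed2 and Tmed7 had none. The core TGACGTGG, searched on both strands, was found in 7 of these 43 members, or 16.3%. Among all 27025 symbols with a window it was found in 193, or 0.714%. That background was not filtered for expression or matched to the members, and the shares were not tested. The match lay at -26 to -19 from the start site in Sec24d, -28 to -21 in Copb1, and 7 to 14 in Sec23a. Stx5a held a pair of matches, at 10 to 17 and at 40 to 47. The other matching members were Gbf1 at -12 to -5, Kdelr3 at -30 to -23 and Copb2 at -7 to 1. Of 55 other genes of the pathway with a window, 3 held the core.

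The cAMP response element TGACGTCA was found in Gosr2 and Cope among members and in 549 symbols, or 2.03%. The ER stress elements ERSE (37 symbols, 0.137%) and ERSE-II (12 symbols, 0.0444%) and the amino acid response motif TGATGNAAT (293 symbols, 1.08%) matched no member window. The core can overlap the CCACG end of an ERSE and shares its first letters with the cAMP element. A match is a string in a window and was not tied to binding. Of the 7 genes with the core, Sec24d and Stx5a were among the most raised members in tunicamycin with control siRNA. Copb1 (0.23 in log2), Sec23a (0.16) and Gbf1 (0.11) were raised less, and Kdelr3 and Copb2 were not called there. The members raised more than Sec24d, namely Mcfd2 (0.98), Uso1 (0.88) and Bet1 (0.75), had a window without the core.

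Values in the siRNA and CRISPRa experiments are FPKM (fragments scaled for transcript length and for library size), and those in the drug experiment are TPM, a share of transcripts corrected for length. Differences are given on the log2(value + 1) scale with their standard error (SE), from limma fitted to all symbols with a mean of at least 1 in an experiment. A gene is called raised or lowered at a Benjamini-Hochberg adjusted p under 0.05 over all symbols tested. The 48 genes were strongly expressed in untreated cells: their median was 43.7 FPKM with control siRNA, at a percentile of 82.8 among the symbols tested, 44.8 FPKM with control sgRNA and 120 TPM in DMSO for 24 h. Tmed2, a p24 cargo receptor, was the highest member in all 3, at 215 and 201 FPKM and 480 TPM. Sec24a, a Sec24 cargo adaptor, was the lowest, at 6.38 and 5.42 FPKM and 18.7 TPM. Background shares below are over all symbols tested and are not matched for level.

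The FPKM of a library summed to between 393764 and 424082 in the siRNA experiment. In the CRISPRa experiment the sum was 381968 to 425295 but for library C of Son sgRNA in DMSO, at 499908, which was also the library with the lowest Son. Son was 20.8 to 23.1 FPKM with its siRNA against 42.6 to 44.9 with control siRNA in DMSO, and 14.1 to 16.8 against 35.02 to 37.01 in tunicamycin. The Son guide gave 29.8, 44.6 and 51.9 FPKM in DMSO against 46.4 to 48.3 with the control guide, and no rise of Son was called (log2 difference -0.20 ± 0.16 SE, limma adjusted p = 0.383). These are therefore called the libraries labelled Son sgRNA. Hspa5, the ER chaperone BiP and a standard marker of ER stress, had a mean of 394 FPKM in DMSO in both experiments, 4676 FPKM in tunicamycin with control siRNA and 2352 FPKM in tunicamycin with control sgRNA. Library D of control siRNA in tunicamycin stood apart, with 5677 FPKM of Hspa5 against 4199 to 4526 in the other libraries of its group. The summed level of 10 fibroblast markers, of which Thy1 was near 0, moved with the treatments: 3362 to 3477 FPKM in control siRNA DMSO and 1879 to 2331 in tunicamycin, and 7526 to 7669 TPM in DMSO for 24 h against 1808 to 1918 in pyrvinium. Endothelial markers (4 genes) summed to at most 2.26 TPM and muscle markers (4 genes) to at most 4.78 TPM in any drug library, and 5 epithelial markers summed to 165 to 210 TPM in DMSO and 39.5 to 53.5 in pyrvinium. Of 5 leukocyte markers, Ptprc, Adgre1 and Itgam were under 0.1 TPM in every drug group, and the list summed to 5.41 to 6.64 TPM in DMSO, 13.8 to 15.6 in nintedanib, 14.1 to 16.8 in ponatinib, 9.79 to 10.7 in proflavine and 10.5 to 14.2 in pyrvinium. Of 4 neural markers, Sox10 was under 0.1 TPM, and the list summed to 114 to 120 TPM in DMSO, 138 to 148 in nintedanib, 73.2 to 77.8 in ponatinib, 151 to 162 in proflavine and 47.7 to 50.7 in pyrvinium. Of 3 adipocyte markers, Adipoq and Plin1 were under 0.1 TPM, and the list summed to 18.5 to 26.6 TPM in DMSO, 31.6 to 38.8 in nintedanib, 10.3 to 12.3 in ponatinib, 59.96 to 66.9 in proflavine and 0.875 to 1.86 in pyrvinium. The part of these shifts in the results below was not tested. In bulk RNA, fewer cells of a type and less RNA per cell cannot be told apart.

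Tunicamycin raised most of the ER-to-Golgi machinery in control siRNA cells, and the largest increases were in a cargo receptor gene, a vesicle tether, SNAREs and the coat adaptor Sec24d. Of the 48 members 33 were raised and 8 lowered, against 26.6% raised and 42.4% lowered of all symbols. The median over members was 0.22 and that over all symbols was -0.06. All 5 SNAREs and tether genes were raised, with a median of 0.71, as were 5 of 6 exit-site genes (median 0.42), 6 of 8 COPII coat genes (0.22), 11 of 17 cargo receptors (0.27) and 4 of 9 COPI coat genes (0.09). With another scaling (median ratio), 33.2% of all symbols were raised and 35% lowered, and 37 members were raised and 6 lowered.

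**Figure D1:**
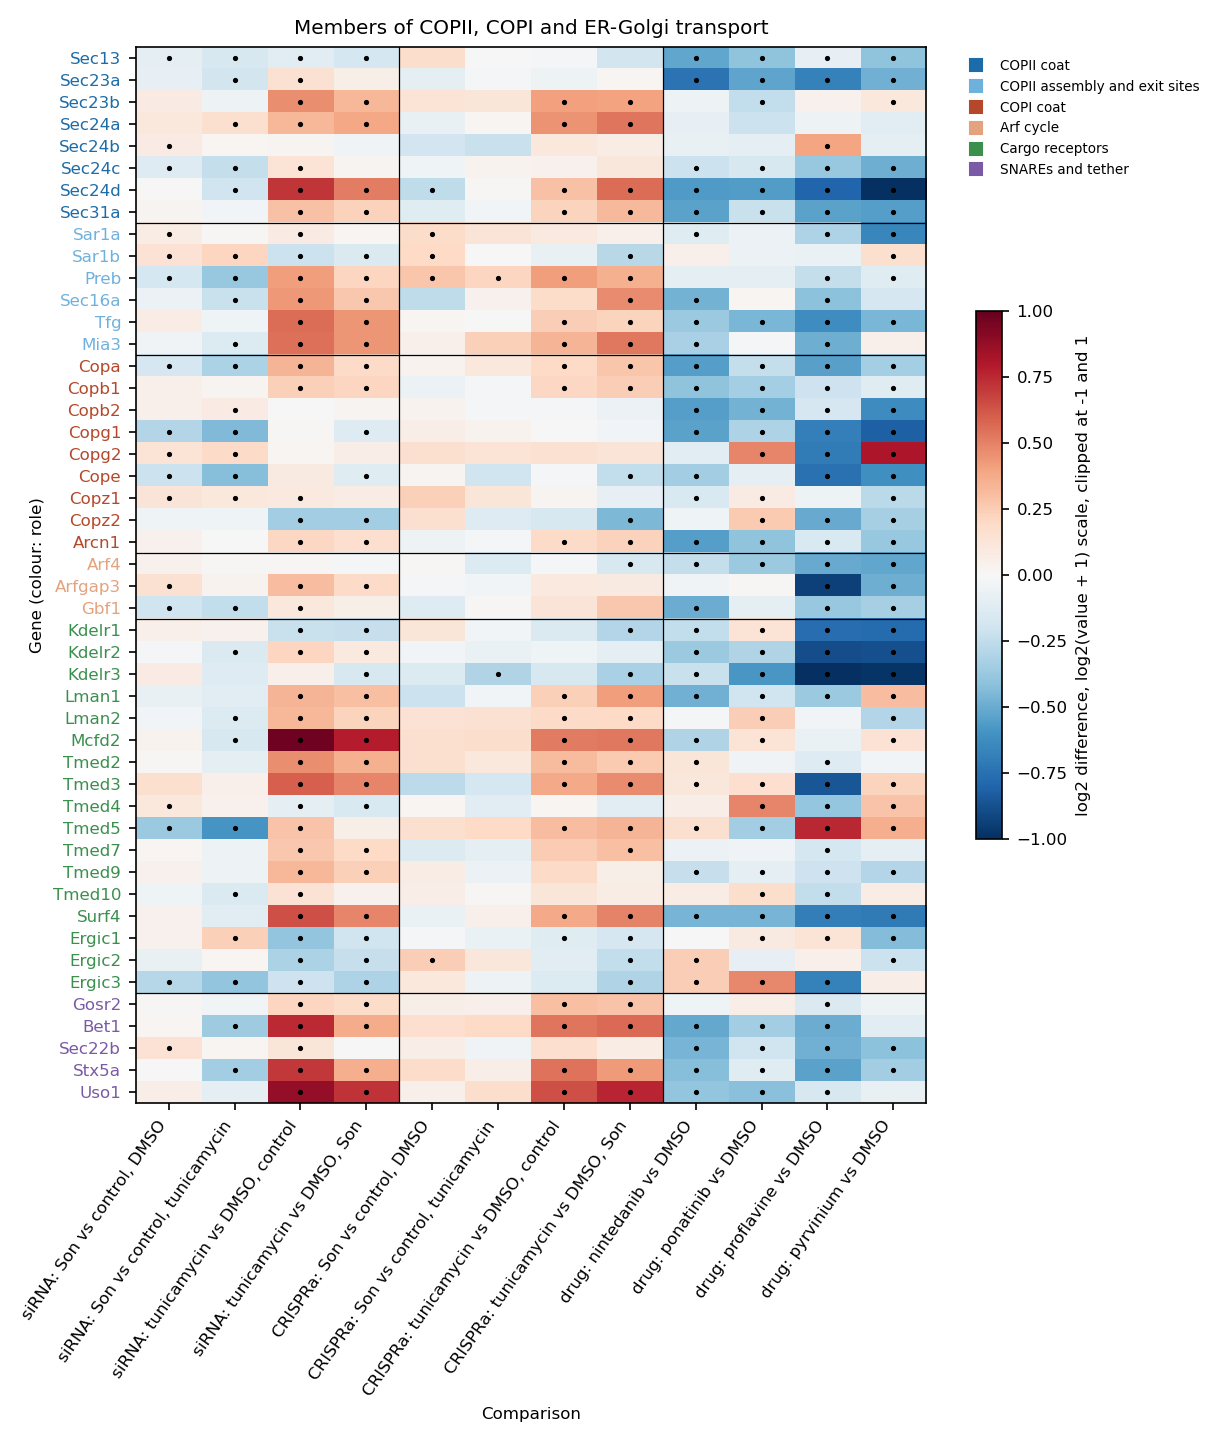
Log2 differences of the 48 members (rows, coloured by role) in 12 comparisons (columns), with colour limited to the range from -1 to 1 and a dot where the limma adjusted p was under 0.05. Uso1, Stx5a, Bet1, Mcfd2 and Sec24d are raised in every column of tunicamycin versus DMSO, and each drug column has more lowered than raised rows.

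Mcfd2 encodes the soluble partner of Lman1, with which it carries coagulation factors out of the ER. It was 40.3, 43.3, 43.7 and 44.0 FPKM in control siRNA DMSO and 79.3, 79.9, 81.7 and 101.5 FPKM in tunicamycin, a log2 difference of 0.98 ± 0.062 (limma adjusted p = 5.48e-10). The groups did not overlap, and library D was the highest. Lman1 itself went from 53.7 to 68.4 FPKM, a smaller log2 difference of 0.34 ± 0.057 (limma adjusted p = 5.43e-05). Surf4, the receptor that exports many soluble proteins, was 115, 115, 116 and 120 FPKM in DMSO and 171, 172, 179 and 210 FPKM in tunicamycin (0.64 ± 0.047). Tmed3, a p24 protein, went from 23.0 to 35.2 FPKM (0.60 ± 0.063), and Tmed2 from 215 to 297 FPKM (0.46 ± 0.039). Every tunicamycin library of these receptors lay above every DMSO library.

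Uso1, the p115 tether that docks vesicles at the cis-Golgi, was 40.3, 42.7, 44.1 and 44.8 FPKM in DMSO and 75.6, 76.3, 79.1 and 89.6 FPKM in tunicamycin (0.88 ± 0.047, limma adjusted p = 6.11e-11). Bet1 and Stx5a, SNAREs of the same fusion step, went from 13.0 to 22.6 FPKM (0.75 ± 0.070) and from 30.8 to 51.1 FPKM (0.71 ± 0.048). Gosr2 and Sec22b, the other SNAREs of the list, were raised by 0.22 and 0.12 in log2. In each of these 5 genes the groups did not overlap.

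Among the COPII coat genes, Sec24d had the largest increase. It encodes a cargo adaptor of the inner coat and was 38.3, 38.4, 38.6 and 40.0 FPKM in DMSO and 57.7, 60.03, 62.4 and 78.6 FPKM in tunicamycin (0.71 ± 0.064, limma adjusted p = 3.97e-08). Its share of the summed FPKM of Sec24a to Sec24d went from 35.4% to 45.3% (range 42.9% to 49.8%). Sec23b, an inner coat gene, went from 39.6 to 54.95 FPKM (0.46 ± 0.042) while its paralog Sec23a went from 12.6 to 14.2 FPKM (0.16 ± 0.034), so that Sec23a made up 24.2% of the pair in DMSO and 20.5% in tunicamycin. The outer coat gene Sec31a went from 51.3 to 63.0 FPKM (0.29 ± 0.029), and Sec13, its partner, was lowered from 111 to 103 FPKM (-0.11 ± 0.031). The exit-site genes Tfg and Mia3 went from 51.4 to 76.2 FPKM (0.56 ± 0.036) and from 19.6 to 29.1 FPKM (0.55 ± 0.036). Sec16a, the exit-site scaffold, and Preb, the Sar1 exchange factor, were raised by 0.43 and 0.42 in log2. The GTPases differed: Sar1a was raised by 0.08 and Sar1b was lowered, at -0.21.

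The 8 members lowered by tunicamycin were the ERGIC genes, Copz2, Kdelr1, Sar1b, Sec13 and the p24 gene Tmed4. Ergic1, a membrane protein of the intermediate compartment, was 64.8, 66.8, 68.3 and 69.6 FPKM in DMSO and 48.8, 50.03, 52.0 and 53.3 FPKM in tunicamycin (-0.39 ± 0.033, limma adjusted p = 1.74e-08). Ergic2 and Ergic3, its relatives, were at -0.32 and -0.21 in log2. Copz2, a zeta subunit of COPI, went from 33.7 to 26.2 FPKM (-0.35 ± 0.043), while Copz1, the other zeta subunit, went from 97.2 to 104 FPKM (0.10 ± 0.032). The KDEL receptors did not move together: Kdelr1 went from 74.2 to 63.4 FPKM (-0.22 ± 0.028), Kdelr2 from 102 to 118 FPKM (0.22 ± 0.039), and Kdelr3 from 47.7 to 49.2 FPKM (0.05 ± 0.053, limma adjusted p = 0.432). When library D of control siRNA in tunicamycin was left out, 39 members were called. The calls of Gbf1 (limma adjusted p = 0.0605) and Tmed4 (adjusted p = 0.051) were then lost, and that of Gbf1 was also lost without library A of control siRNA in DMSO (adjusted p = 0.0517). Under median-ratio scaling Tmed4 was not called either (adjusted p = 0.305).

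**Figure D2:**
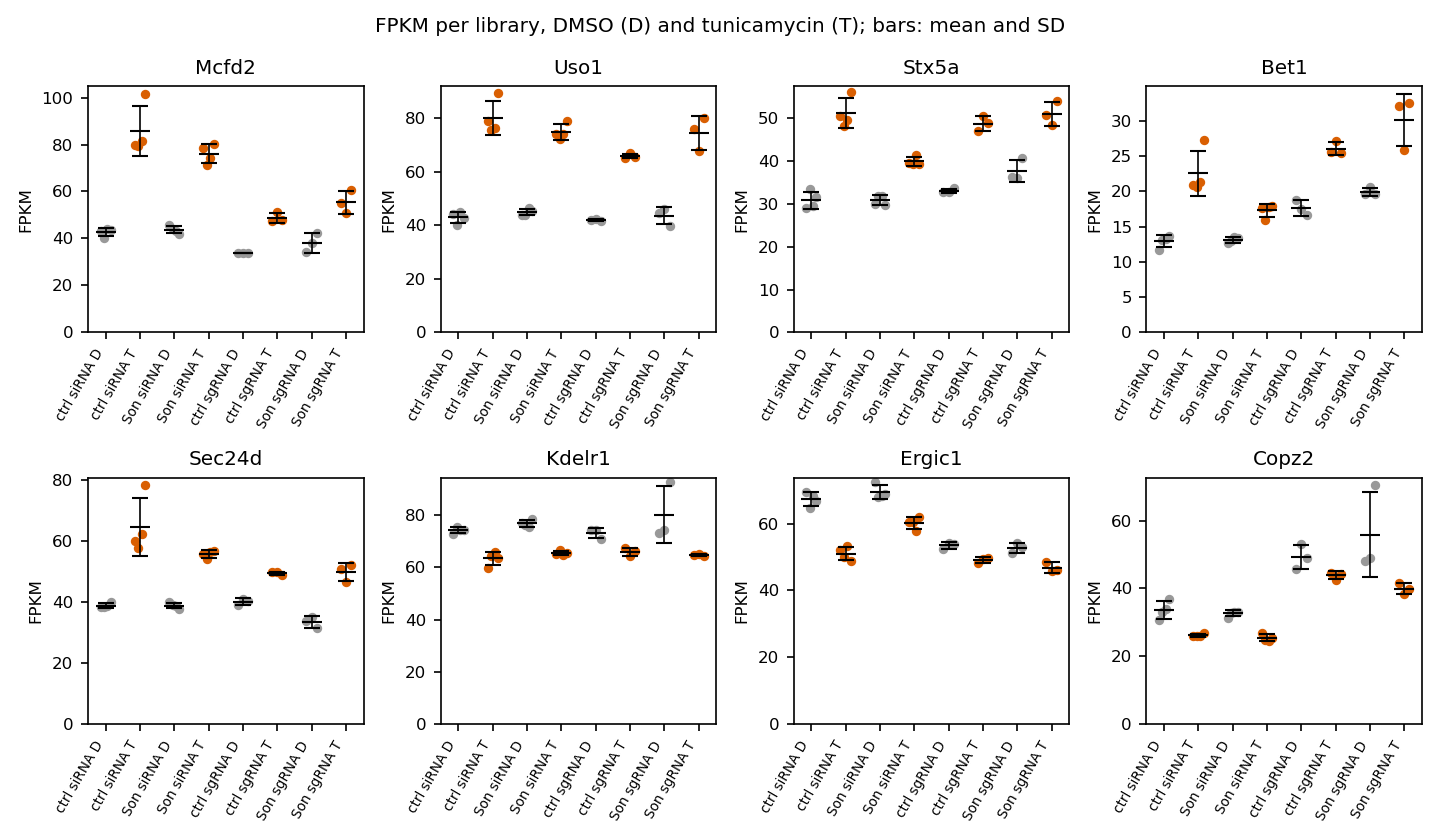
FPKM of 8 members in each library (points) of the 8 siRNA and CRISPRa groups, with the mean and SD of each group. Mcfd2, Uso1, Stx5a, Bet1 and Sec24d are higher in all tunicamycin groups than in the matching DMSO groups, and Ergic1 and Copz2 are lower in control siRNA tunicamycin, at 51.0 and 26.2 FPKM, than in DMSO, at 67.4 and 33.7 FPKM.

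The control sgRNA cells, which share no library with the siRNA experiment, again had Uso1, Stx5a, Bet1 and Mcfd2 as the most raised members, with smaller log2 differences than in the siRNA experiment. Tunicamycin raised 21 members and lowered 1, against 24.2% raised and 14.1% lowered of all symbols, with a median over members of 0.17 and over all symbols of 0.05. Under median-ratio scaling 20 members were raised and 4 lowered, against 19.8% and 20.1% of all symbols. With a trend on transcript length removed 22 were raised and 7 lowered, against 25.0% and 26.2%. In a fit of only the groups compared 31 were raised and 6 lowered, with no background share given here. All 21 members raised here were among the 33 raised with control siRNA, which is 63.6% of those 33. The sign was the same in 42 of 48 members, and Pearson's r between the responses over the 48 genes was 0.90, a description, since genes are not independent replicates. The same overlap over all symbols was not computed, so the agreement cannot be called particular to these members. The fibroblast markers again summed lower in tunicamycin, at 1651 to 1798 FPKM against 2223 to 2400 in DMSO.

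Uso1 was 41.7, 41.8 and 42.3 FPKM in control sgRNA DMSO and 65.3, 65.6 and 66.9 FPKM in tunicamycin (0.64 ± 0.067, limma adjusted p = 2.42e-05). Stx5a went from 33.1 to 48.7 FPKM (0.55 ± 0.059), Bet1 from 17.6 to 26.1 FPKM (0.54 ± 0.080) and Mcfd2 from 33.8 to 48.9 FPKM (0.52 ± 0.079). In these 4 genes the groups did not overlap. Sec24d was 38.9, 40.5 and 41.2 FPKM in DMSO and 48.9, 49.8 and 49.9 FPKM in tunicamycin (0.30 ± 0.056, limma adjusted p = 0.00149), and its share of the Sec24 family went from 34.8% to 37.9%. Sec23b (0.41 ± 0.057), Preb (0.42 ± 0.059), Sec24a (0.45 ± 0.13), Surf4 (0.38 ± 0.055), Tmed2 (0.31 ± 0.082), Sec31a (0.23 ± 0.049) and Lman1 (0.23 ± 0.082) were raised. Ergic1, the member lowered here, went from 53.6 to 49.1 FPKM (-0.12 ± 0.045, limma adjusted p = 0.0479), and its call was lost when any of 9 libraries was left out.

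Other members did not pass in control sgRNA cells. Copz2 was at -0.16 ± 0.12 (limma adjusted p = 0.299), Kdelr3 at -0.16 ± 0.079 (adjusted p = 0.128), Sar1a at 0.10 ± 0.046 (adjusted p = 0.104) and Copz1 at 0.03 ± 0.075 (adjusted p = 0.799). The calls of Sec24a, Mia3, Copa, Copb1, Lman1 and Tmed5 were lost when some of the libraries were left out, and 16 to 32 members were called over these fits. The difference between the siRNA and sgRNA experiments was not tested.

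**Figure D3:**
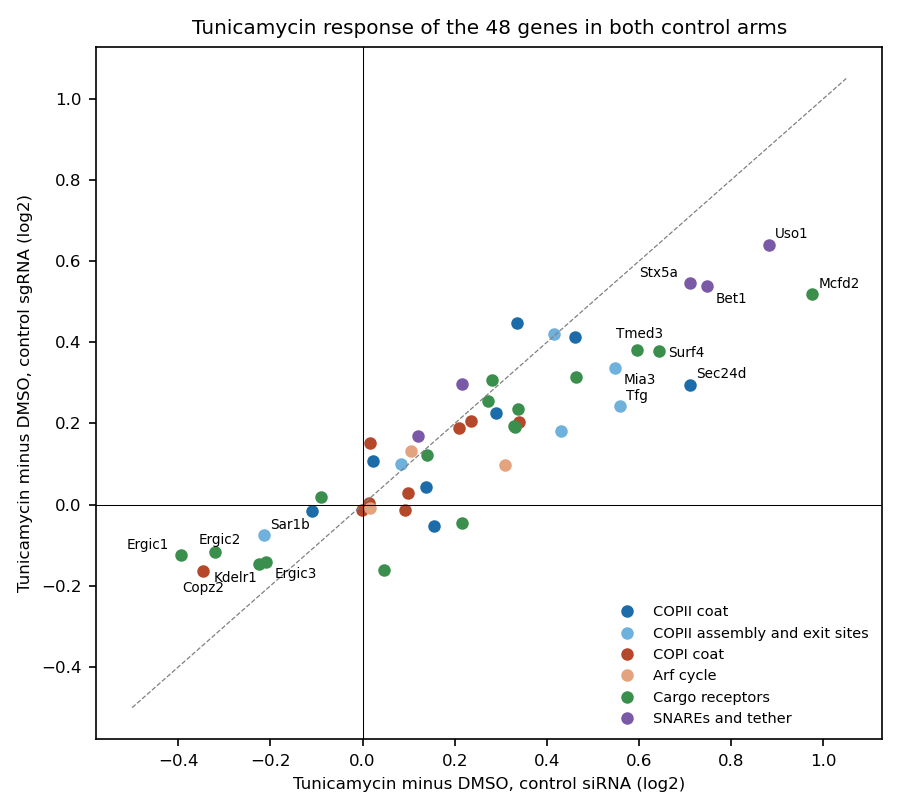
Tunicamycin minus DMSO on the log2(FPKM + 1) scale for each of the 48 members, with control siRNA (horizontal axis, n = 4 a group) and control sgRNA (vertical axis, n = 3 a group), coloured by role, and the line of equal response dashed. Mcfd2, Uso1, Bet1, Stx5a and Sec24d lie at the upper right, and all of them lie below the line.

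With the Son siRNA, tunicamycin raised 25 members and lowered 11, against 26.1% raised and 41.1% lowered of all symbols. The medians were 0.13 over members and -0.05 over all symbols. Under median-ratio scaling 32 were raised and 8 lowered, against 31.6% and 35.0% of all symbols. Mcfd2 went from 43.8 to 76.1 FPKM (0.78 ± 0.062), Uso1 from 44.9 to 74.9 FPKM (0.73 ± 0.047), Sec24d from 38.8 to 55.8 FPKM (0.51 ± 0.064) and Tmed3 from 25.7 to 36.4 FPKM (0.49 ± 0.063). Surf4 (0.49 ± 0.047), Tmed2 (0.36 ± 0.039), Sec23b (0.33 ± 0.042), Lman1 (0.30 ± 0.057) and Sec31a (0.23 ± 0.029) were also raised. The lowered genes of largest change were Copz2 (-0.35 ± 0.043), Ergic3 (-0.31 ± 0.041), Ergic2 (-0.23 ± 0.029) and Kdelr1 (-0.23 ± 0.028). Kdelr3 was lowered from 50.4 to 44.9 FPKM (-0.16 ± 0.053, limma adjusted p = 0.012), with overlapping groups. Sar1a was at 0.02 ± 0.023 (limma adjusted p = 0.507) and Copz1 at 0.07 ± 0.032 (adjusted p = 0.0546).

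The test of the difference between the tunicamycin responses with Son siRNA and control siRNA called 3 members, against 1.68% of all symbols. The response of Stx5a was smaller with Son siRNA (-0.35 ± 0.068, limma adjusted p = 0.0249): with control siRNA its mean rose from 30.8 to 51.1 FPKM, and with Son siRNA it rose from 30.8 to 39.9 FPKM. The response of Preb was also smaller (-0.20 ± 0.047, limma adjusted p = 0.0397), and Ergic1 was lowered less (0.19 ± 0.047, limma adjusted p = 0.0464). All 3 calls were lost in several of the fits without 1 library, among them that without library A of control siRNA in DMSO (adjusted p = 0.0535 for Stx5a, 0.0755 for Preb and 0.0973 for Ergic1), and no call was left without the filter on low values. Bet1 did not pass, at -0.37 in log2 (limma adjusted p = 0.0612). Of the 48 members 42 had a difference below 0, with a median of -0.10 against 0.01 over all symbols. The share of all symbols below 0 is not given here. Against control siRNA in DMSO, the member median in tunicamycin was 0.194, 0.130, 0.206 and 0.303 in libraries A to D of control siRNA. With Son siRNA in tunicamycin it was 0.126 to 0.157, so library D of the control group lay farthest from these. Hspa5 was 343 FPKM with Son siRNA against 394 with control siRNA in DMSO and 3718 against 4676 in tunicamycin, and the difference of its responses was not called (-0.12 ± 0.11, limma adjusted p = 0.581). Under median-ratio scaling 5 members were called, 1 above and 4 below 0, and under quantile normalization 6, with 1 above and 5 below.

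In DMSO, the Son siRNA gave small changes in both directions, and the share of members called was near the background. It raised 8 and lowered 9, against 20% and 16.1% of all symbols, and both medians were 0.03. Under median-ratio scaling 6 were raised and 11 lowered, against 17.8% and 17.8% of all symbols. The lowered genes were led by Tmed5, Copg1, Ergic3 and Cope. Tmed5, a p24 protein, was 24.7, 27.8, 28.8 and 29.7 FPKM with control siRNA and 20.2, 20.7, 21.8 and 22.2 FPKM with Son siRNA (-0.37 ± 0.062, limma adjusted p = 0.000226). Copg1, a gamma subunit of COPI, was 64.5, 64.6, 66.8 and 67.4 FPKM with control siRNA and 51.4, 52.9, 54.3 and 55.4 FPKM with Son siRNA (-0.29 ± 0.029, limma adjusted p = 1.04e-06). Neither gene had overlapping groups.

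Ergic3 went from 100 to 81.7 FPKM (-0.29 ± 0.041) and Cope, the epsilon subunit of COPI, from 86.3 to 74.3 FPKM (-0.21 ± 0.042). The raised genes changed less. They were led by Arfgap3, which stimulates GTP hydrolysis by Arf (0.15 ± 0.040), Sar1b (0.15 ± 0.048), Sec22b (0.14 ± 0.034) and Copg2, the other gamma subunit (0.14 ± 0.051, limma adjusted p = 0.0439). Sar1a (0.08 ± 0.023) and Copz1 (0.13 ± 0.032) were raised as well. Sec24d was at 0.00 ± 0.064 (limma adjusted p = 0.999), Sec23b at 0.08, Sec31a at 0.03, Surf4 at 0.05, Tmed2 at 0.01, Kdelr3 at 0.08, Copz2 at -0.04 and Lman1 at -0.07, none of which passed. The calls of Sec13, Sec24b, Sar1a, Sar1b and Copg2 were lost when some of the libraries were left out, among them library A of control siRNA in DMSO for Sec13, Sec24b, Sar1a and Copg2 and library B of that group for Sar1b.

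In tunicamycin, Son siRNA lowered more members than it raised. Of the 48 members 19 were lowered and 6 raised, against 20.4% and 30.6% of all symbols, and the median over members was -0.07 against 0.04 over all symbols. Of 8 COPII coat genes 4 were lowered and 1 raised (median -0.11), of 6 exit-site genes 3 and 1 (-0.09), and of 17 cargo receptors 6 and 1 (-0.11). Of 9 COPI coat genes 3 were lowered and 3 raised (median 0.00), and of the 5 SNARE and tether genes 2 were lowered (-0.09). The fibroblast markers summed to 2253 to 2391 FPKM with Son siRNA and 1879 to 2331 with control siRNA. Tmed5 was 31.3, 32.4, 33.1 and 39.1 FPKM with control siRNA and 21.2, 22.1, 22.3 and 23.2 FPKM with Son siRNA (-0.59 ± 0.062, limma adjusted p = 8.95e-07). Copg1 went from 66.5 to 48.8 FPKM (-0.44 ± 0.029), Cope from 92.2 to 68.4 FPKM (-0.43 ± 0.042) and Ergic3 from 86.4 to 65.7 FPKM (-0.39 ± 0.041). In these 4 genes the groups did not overlap. Preb went from 24.0 to 18.2 FPKM, and Bet1 and Stx5a were lower by -0.35 in log2 each. Sec24d was lowered too (-0.20 ± 0.064, limma adjusted p = 0.0157), though its highest control library, given above, lay well above the others of that group.

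The raised members of largest change in this comparison were Ergic1 (0.24 ± 0.033), Sar1b (0.22 ± 0.048), Copg2 (0.19 ± 0.051) and Sec24a (0.16 ± 0.043), followed by Copz1 (0.10 ± 0.032). Surf4 at -0.11 (limma adjusted p = 0.0525), Tmed2 at -0.09 (adjusted p = 0.0547), Kdelr3 at -0.13 (adjusted p = 0.0501), Lman1 at -0.11, Sec23b at -0.05, Sec31a at -0.03, Copz2 at -0.04 and Sar1a at 0.01 did not pass. The call of Mcfd2, from 85.6 to 76.1 FPKM (-0.16 ± 0.062), moved to -0.08 and was lost when library D of the control group was left out (limma adjusted p = 0.122). Copg2 made up 9.11% of the summed FPKM of the gamma subunits with control siRNA in DMSO and 12.1% with Son siRNA, and 9.13% and 13.7% in tunicamycin. Copg2 shares 912 exon bases with Mest on the opposite strand, and Mest was at most 0.208 FPKM in the control siRNA DMSO libraries.

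Few members were called between the libraries labelled Son sgRNA and control sgRNA. In DMSO 4 members were raised and 1 lowered, against 9.11% raised and 5.29% lowered of all symbols. Preb was 14.1, 14.2 and 14.3 FPKM with control sgRNA and 16.9, 17.7 and 17.8 FPKM in the libraries labelled Son sgRNA (0.28 ± 0.059, limma adjusted p = 0.00967). Ergic2 (0.25 ± 0.056), Sar1b (0.20 ± 0.062) and Sar1a (0.18 ± 0.046) were raised, and Sec24d was lowered from 40.2 to 33.5 FPKM (-0.26 ± 0.056, limma adjusted p = 0.0113). The call of Ergic2 was lost without library B or C of control sgRNA in DMSO, and so was that of Sec24d. Over all fits without 1 library, 1 to 11 members were called, so calls of other members were lost in some fits too. Under median-ratio scaling 2 members were raised and 5 lowered, with the length trend removed 4 and 11, under quantile normalization 4 and 8, and in a fit of only the groups compared 2 and 0. In tunicamycin Preb was raised (0.21 ± 0.059, limma adjusted p = 0.0412) and Kdelr3 lowered from 81.3 to 66.1 FPKM (-0.30 ± 0.079, limma adjusted p = 0.035), against 2.59% raised and 6.86% lowered of all symbols. Both calls were lost without library A of control sgRNA in DMSO, and without library C of Son sgRNA in DMSO 11 members were called. Under median-ratio scaling 5 members were raised and none lowered, against 4.41% and 6.11% of all symbols. With the length trend removed the counts were 9 and 3, against 9.05% and 10.7%. Under quantile normalization they were 7 and 2, against 7.06% and 6.89%.

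Tunicamycin in the libraries labelled Son sgRNA raised 23 members and lowered 9, against 22.7% and 26.6% of all symbols, with medians of 0.17 and -0.01. Under quantile normalization 30 were raised and 6 lowered, against 24.3% and 27.2% of all symbols. In a fit of only the groups compared the counts were 15 and 3, with no background share given here. Uso1 (0.76 ± 0.067), Bet1 (0.57 ± 0.080), Sec24d (0.56 ± 0.056) and Sec24a (0.54 ± 0.13) were raised most. Surf4 (0.50 ± 0.055), Lman1 (0.42 ± 0.082), Sec23b (0.40 ± 0.057), Sec31a (0.33 ± 0.049) and Tmed2 (0.26 ± 0.082) followed. Copz2 was 48.2, 48.9 and 70.5 FPKM in DMSO and 38.4, 39.9 and 41.7 FPKM in tunicamycin (-0.45 ± 0.12, limma adjusted p = 0.00767), with no overlap, and the highest value was that of library C. Kdelr3 (-0.32 ± 0.079), Ergic3 (-0.30 ± 0.092) and Kdelr1 (-0.30 ± 0.076) were lowered. The fibroblast markers summed to 2043 to 2311 FPKM in DMSO and 1295 to 1510 in tunicamycin. The test of the difference between the responses in the libraries labelled Son sgRNA and control sgRNA called no member and 0% of all symbols in limma. At an unadjusted p under 0.05 it gave 2 members and 908 symbols.

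Each drug lowered more members than it raised, and in each the median over coat subunits lay below that over cargo receptors. Since all 4 comparisons use the same 3 DMSO libraries, their values are given side by side and not counted together. Nintedanib raised 5 members and lowered 29, against 34.3% and 22.1% of all symbols, with a median of -0.24 against 0.04. Ponatinib raised 11 and lowered 23, against 41.1% and 21.4%, with a median of -0.10 against 0.10. Proflavine raised 3 and lowered 38, against 27.8% and 42.4%, with a median of -0.38 against -0.09. Pyrvinium raised 8 and lowered 29, against 36.6% and 40.8%, with a median of -0.29 against -0.03. In pyrvinium libraries 1 to 3 the median of all symbols was 0.0135, 0.000386 and -0.111, and that of members -0.222, -0.284 and -0.369. In nintedanib the median of all symbols was -0.0123 in library 1 against 0.0791 and 0.0692. Without 1 library, 34 to 39 members were called in pyrvinium and 33 to 35 in nintedanib.

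Scaling mattered most for ponatinib. Under median-ratio scaling the median of all symbols was -0.00385 in place of 0.0974. There 4 members were raised and 35 lowered, against 31.9% and 32.6% of all symbols. Quantile normalization moved the nintedanib median of all symbols from 0.04 to -0.07. With it 3 members were raised and 38 lowered, against 27.2% and 38.9% of all symbols. The fibroblast markers summed to 6345 to 6458 TPM in nintedanib, 5183 to 5457 in ponatinib, 4905 to 5077 in proflavine and 1808 to 1918 in pyrvinium. Hspa5 had a mean of 1000 TPM in DMSO, 597 in nintedanib, 578 in ponatinib, 742 in proflavine and 1496 in pyrvinium.

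Nintedanib lowered 12 of the 17 coat subunits and raised none, with a median of -0.40, whereas 5 of 17 cargo receptors were raised and 7 lowered, with a median of -0.01. Ponatinib gave coat and receptor medians of -0.24 and -0.03, proflavine of -0.38 and -0.25, and pyrvinium of -0.38 and -0.09. The coat median minus the receptor median was -0.39, -0.20, -0.13 and -0.29 in these drugs. Taken library by library against the mean of the control DMSO group of the experiment, it was -0.434 to -0.379 in nintedanib, -0.262 to -0.178 in ponatinib, -0.156 to -0.0808 in proflavine and -0.321 to -0.264 in pyrvinium, and -0.0166 to 0.00877 in DMSO. Since their own mean was subtracted, the DMSO libraries lie near 0 on this measure by construction. No drug library overlapped them, which is a description and was not tested. In tunicamycin the coat median minus the receptor median was -0.222 (library D) to -0.0760 with control siRNA and -0.0891 to -0.0572 with control sgRNA. With tunicamycin and Son siRNA it was -0.0484 to 0.0723, and in the libraries labelled Son sgRNA it was -0.00468 to 0.00636. In DMSO the Son siRNA libraries were at -0.00387 to 0.0468 and those labelled Son sgRNA at -0.186 to 0.0606.

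**Figure D4:**
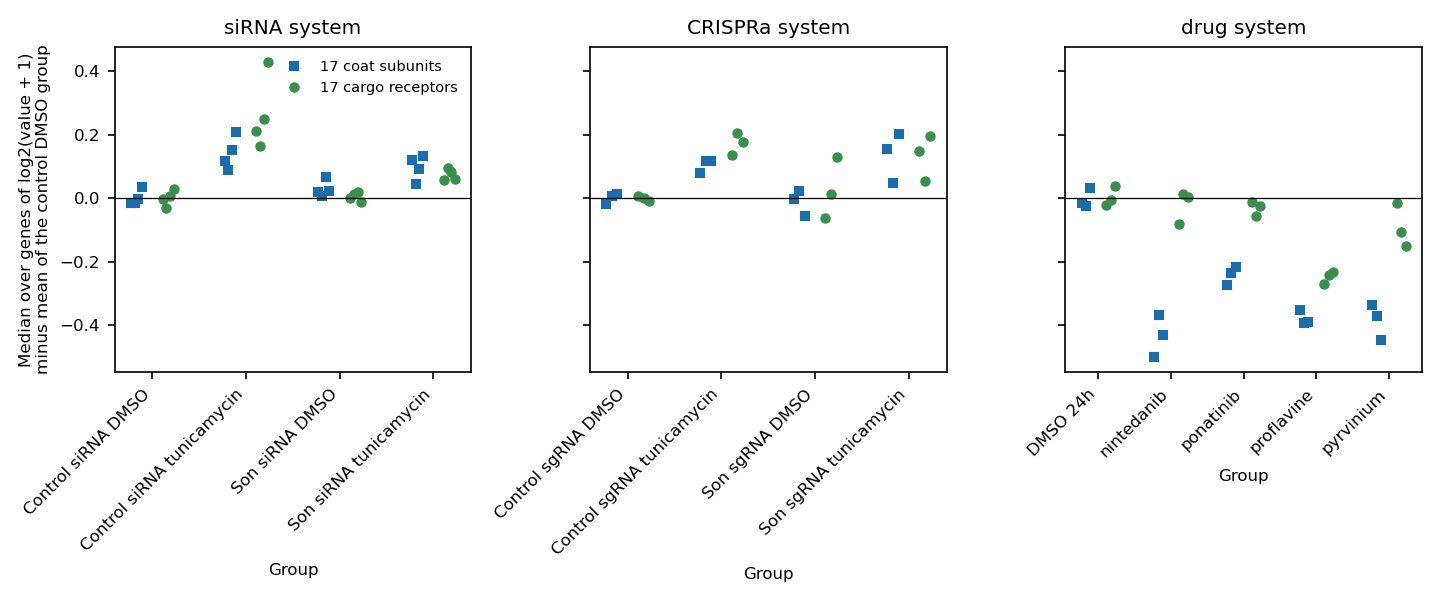
Median log2 difference from the mean of the control DMSO group over the 17 coat subunits (squares) and the 17 cargo receptors (circles) in each library of the 3 experiments. In the drug panel every square lies below the circle of its library but in DMSO, with nintedanib coats at -0.501 to -0.367 and receptors at -0.0822 to 0.0116.

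Sec24d was lowered by each drug. It was 133, 136 and 140 TPM in DMSO, 81.8, 96.6 and 97.5 TPM in nintedanib, and 91.3, 92.7 and 93.6 TPM in ponatinib. It was 77.5, 78.3 and 79.7 TPM in proflavine and 62.9, 68.7 and 68.8 TPM in pyrvinium. The log2 differences from DMSO were -0.57 ± 0.056, -0.56 ± 0.056, -0.79 ± 0.056 and -1.02 ± 0.056 in that order, and no treated library overlapped DMSO. Its share of the Sec24 family was 44.7% in DMSO, 37.8% in nintedanib, 37.8% in ponatinib, 33.3% in proflavine and 33.3% in pyrvinium. Sec23a was at -0.74, -0.53, -0.67 and -0.48 in log2, all called, and made up 38.9% of the Sec23 pair in DMSO against 28.1%, 34.1%, 27.7% and 29.5%. Its paralog Sec23b was at -0.05 (not called), -0.24 (called), 0.04 (not called) and 0.11 (called, with overlapping groups, and lost, among others, without library 1 of DMSO). Sec31a was lowered in each, at -0.53, -0.22, -0.54 and -0.55. Sar1a was at -0.12, -0.06, -0.31 and -0.65, of which the ponatinib value did not pass.

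In the COPI coat the gamma subunits parted. Copg1 was 223, 227 and 235 TPM in DMSO and was lowered by each drug, to means of 158, 185, 142 and 130 TPM in nintedanib, ponatinib, proflavine and pyrvinium. Copg2 was 24.4, 25.5 and 26.0 TPM in DMSO, 34.4, 36.0 and 37.2 in ponatinib (0.49 ± 0.051) and 44.2, 45.4 and 45.5 in pyrvinium (0.81 ± 0.051). It was 14.5, 15.1 and 15.8 TPM in proflavine (-0.70 ± 0.051) and 22.1, 23.4 and 25.0 TPM in nintedanib (-0.10, not called). Copg2 therefore made up 9.96% of the gamma pair in DMSO, 13.0% in nintedanib, 16.2% in ponatinib, 9.66% in proflavine and 25.8% (range 24.8% to 27.5%) in pyrvinium. Mest, which shares exon bases with Copg2 on the other strand, was 0.897 TPM in DMSO, 1.66 in nintedanib, 1.29 in ponatinib, 1.499 in proflavine and 0.318 in pyrvinium.

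The other COPI genes were lowered or did not pass, with few exceptions. Copa, the alpha subunit, was at -0.55, -0.24, -0.55 and -0.34, Copb2 at -0.55, -0.47, -0.17 and -0.63, and Arcn1, the delta subunit, at -0.55, -0.40, -0.15 and -0.38 in nintedanib, ponatinib, proflavine and pyrvinium, all called. Cope was lowered by nintedanib (-0.35), proflavine (-0.75) and pyrvinium (-0.61). Copz2 was raised by ponatinib (0.26 ± 0.069) and lowered by proflavine (-0.50 ± 0.069) and pyrvinium (-0.33 ± 0.069). Ponatinib raised 3 coat subunits, namely Copg2, Copz1 and Copz2. It raised 1 coat subunit under median-ratio scaling, 1 with the length trend removed and 3 under quantile normalization. Copz1 was at -0.16 in nintedanib and -0.27 in pyrvinium, both called, at -0.05 in proflavine (not called), and at 0.08 in ponatinib, a call that was lost and turned to -0.03 under median-ratio scaling. Arfgap3 was lowered by proflavine (-0.94 ± 0.043) and pyrvinium (-0.49 ± 0.043).

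The KDEL receptors, which return ER residents that carry a KDEL tail, were strongly lowered by proflavine and pyrvinium. Kdelr3 was 225, 229 and 236 TPM in DMSO, 194, 194 and 204 TPM in nintedanib, and 144, 156 and 160 TPM in ponatinib. It was 94.6, 96.0 and 103 TPM in proflavine and 110, 114 and 123 TPM in pyrvinium. The log2 differences were -0.22 ± 0.050, -0.58 ± 0.050, -1.22 ± 0.050 and -0.98 ± 0.050, with no overlap between any drug and DMSO. Kdelr2 was lowered by each drug, at -0.37, -0.30, -0.89 and -0.88. Kdelr1 was at -0.24, -0.76 and -0.77 in nintedanib, proflavine and pyrvinium and was raised by ponatinib (0.14 ± 0.037). The median of all symbols in ponatinib was 0.0974, and -0.00385 under median-ratio scaling. Cargo receptors raised by ponatinib numbered 8, and 3 under that scaling. The share of Kdelr1 among the KDEL receptors was 27.5% in DMSO and 35.7% in ponatinib. Surf4 was lowered in each, from 344 TPM to 249, 248, 212 and 210 TPM (-0.46, -0.47, -0.69 and -0.71).

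The p24 and ERGIC receptors went both ways. Tmed5 was 56.7, 58.2 and 58.3 TPM in DMSO, 44.0, 45.8 and 45.9 TPM in ponatinib (-0.35 ± 0.045), 95.9, 96.2 and 102 TPM in proflavine (0.75 ± 0.045) and 69.0, 77.0 and 78.2 TPM in pyrvinium (0.36 ± 0.045). Nintedanib raised it by 0.16 ± 0.045. Mtf2, with which Tmed5 shares 395 exon bases on the opposite strand, was 34.3 TPM in DMSO, 34.6 in nintedanib, 28.4 in ponatinib (-0.26, called), 30.7 in proflavine (-0.16, called) and 27.0 in pyrvinium (-0.34, called). Tmed3 was 66.5, 66.9 and 71.7 TPM in DMSO and 36.0, 37.7 and 38.1 TPM in proflavine (-0.86 ± 0.042), with higher values in ponatinib (0.17) and pyrvinium (0.22). Its call in nintedanib (0.11) had overlapping groups and was lost under each other scaling. Ergic3 was 223, 229 and 235 TPM in DMSO, 265, 268 and 280 TPM in nintedanib (0.25 ± 0.040), 316, 319 and 323 TPM in ponatinib (0.48 ± 0.040) and 138, 142 and 149 TPM in proflavine (-0.67 ± 0.040).

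Tmed4 went from 115 TPM to 163 TPM in ponatinib (0.49 ± 0.036), 87.8 TPM in proflavine (-0.39 ± 0.036) and 141 TPM in pyrvinium (0.28 ± 0.036). Tmed2 was raised by nintedanib (0.12 ± 0.029), lowered by proflavine (-0.13 ± 0.029), and at -0.03 in both ponatinib and pyrvinium, neither of which passed. Ergic2 was raised by nintedanib (0.24 ± 0.043). Nintedanib raised 5 cargo receptors, but 3 under each other scaling, so calls of small size there depend on the scaling. Lman1 was 145, 146 and 154 TPM in DMSO, 95.4, 110 and 114 TPM in nintedanib (-0.48 ± 0.052), 128, 129 and 130 TPM in ponatinib (-0.20 ± 0.052) and 113, 114 and 116 TPM in proflavine (-0.37 ± 0.052). In pyrvinium it was higher than in DMSO, at 175, 187 and 189 TPM (0.31 ± 0.052), and no group of Lman1 overlapped DMSO.

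**Figure D5:**
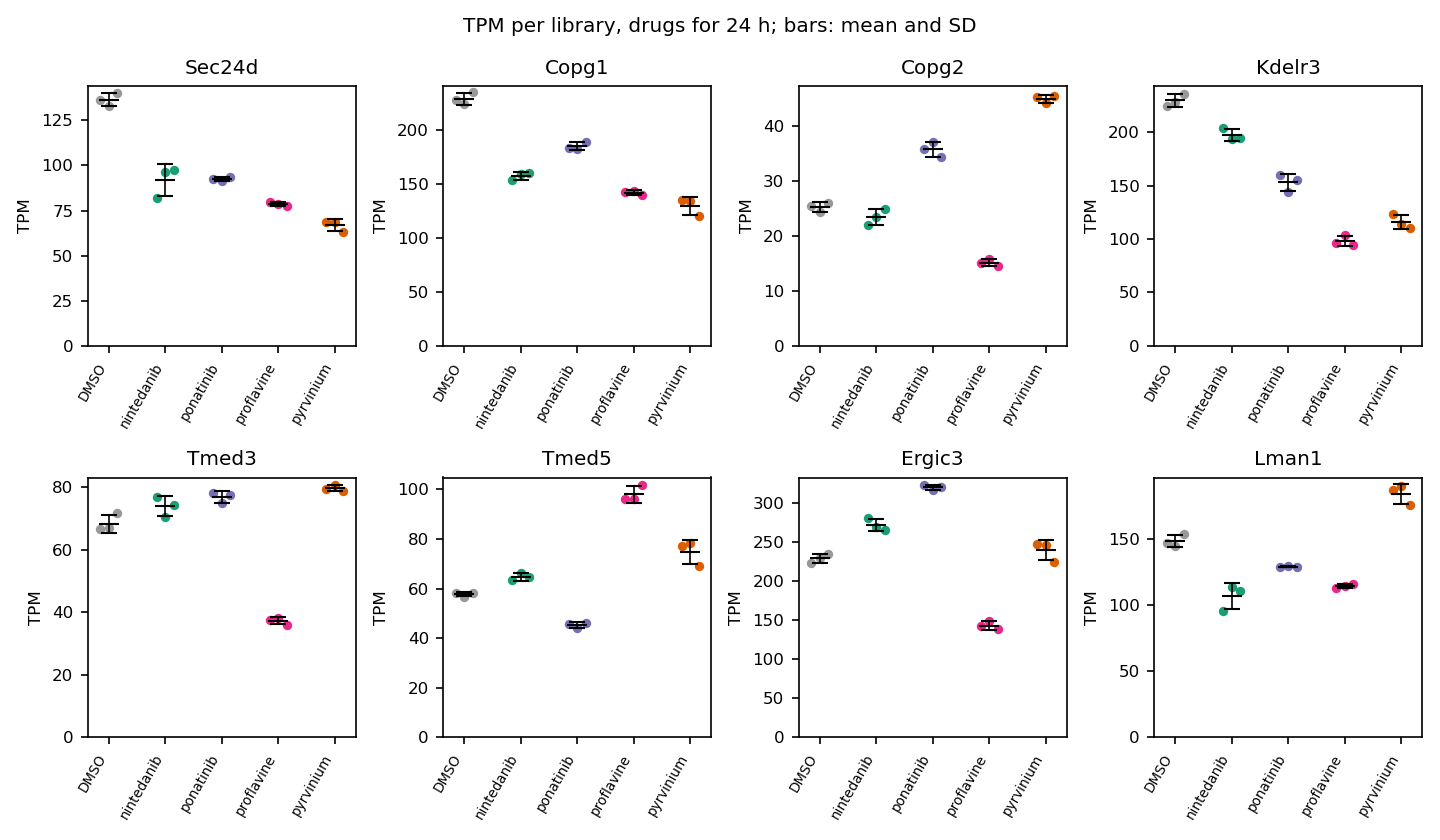
TPM of 8 members in each of the 3 libraries (points) of the 5 drug-table groups, with the mean and SD. Sec24d, Copg1 and Kdelr3 are lower in every drug than in DMSO, while Copg2, Tmed5, Ergic3 and Lman1 are higher in some drugs and lower in others.

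Drugs were also compared directly for the members that 1 drug raised and another lowered by at least 0.3 in log2. These 5 genes were chosen for that contrast after their values were seen, so the differences are descriptions with no test, and folds are ratios of TPM + 1. Copg2 was 2.85-fold higher in pyrvinium than in proflavine (log2 difference 1.51 ± 0.051), at 45.1 against 15.2 TPM. Ergic3 was 2.23-fold higher in ponatinib than in proflavine (1.16 ± 0.040), and Tmed4 was 1.84-fold higher (0.88 ± 0.036). Tmed5 was 2.14-fold higher in proflavine than in ponatinib (1.10 ± 0.045). Lman1 was 1.72-fold higher in pyrvinium than in nintedanib (0.79 ± 0.052). Within each pair the libraries did not overlap.

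The other genes of the pathway, 63 tested from a list of tethers, golgins, TRAPP subunits and regulators in each experiment, are given beside the members. In tunicamycin with control siRNA 22 (34.9%) were raised and 19 (30.2%) lowered, with a median of 0.02, against 26.6% and 42.4% of all symbols. Ctage5, the partner of Mia3 at exit sites, went from 24.2 to 50.3 FPKM (1.02), Nbas, a tether gene, from 4.73 to 8.06 FPKM (0.65) and Creb3l2, a transcription factor known to activate Sec23a in mouse cartilage, from 11.4 to 17.8 FPKM (0.60). Trappc1, a TRAPP tether subunit, went from 61.3 to 26.5 FPKM (-1.18, limma adjusted p = 1.12e-12). With control sgRNA 18 (28.6%) were raised and 3 (4.76%) lowered, against 24.2% and 14.1% of all symbols, led by Ctage5 (0.78), Creb3l2 (0.74) and Trappc1 (-1.005). Son siRNA in DMSO raised 19 (30.2%) and lowered 3 (4.76%), against 20% and 16.1% of all symbols. In tunicamycin it raised 16 (25.4%) and lowered 11 (17.5%), against 30.6% and 20.4%, with Use1, an ER SNARE, at -0.34 in DMSO and -0.56 in tunicamycin. In the libraries labelled Son sgRNA, Creb3l1, a relative of Creb3l2, was lowered in tunicamycin from 25.8 to 15.3 FPKM (-0.72, limma adjusted p = 0.000179).

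Among the drugs, nintedanib raised 18 (28.6%) and lowered 22 (34.9%) of these genes, against 34.3% and 22.1% of all symbols. Ponatinib raised 21 (33.3%) and lowered 17 (27.0%), against 41.1% and 21.4%. Proflavine raised 6 (9.52%) and lowered 35 (55.6%), against 27.8% and 42.4%, and pyrvinium raised 17 (27.0%) and lowered 28 (44.4%), against 36.6% and 40.8%. Creb3l1 was 115 TPM in DMSO, 49.1 TPM in nintedanib (-1.22) and 41.6 TPM in pyrvinium (-1.45), and was at -0.67 in ponatinib. Creb3l2 went from 24.4 to 8.89 TPM in proflavine (-1.36). Trappc1 went from 153 to 41.5 TPM in pyrvinium (-1.85), while Bcap29, an ER membrane protein, went from 14.8 to 43.0 TPM (1.48) and Mia2, which RefSeq lists with Ctage5 as an older symbol, from 37.2 to 86.4 TPM (1.20).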

How the data were processed

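Libraries were stranded TruSeq mRNA, made from RNA of a PureLink kit. The authors deposited FPKM for the siRNA and CRISPRa libraries and TPM for the drug libraries, as the deposited tables are named. Per the submitters' processing notes the build was mm10 and the tools Cufflinks, HISAT2, Salmon, Trim Galore and Trimmomatic. Their roles and settings, and the use of strand in counting, are not given in the sources used. Depth is therefore unknown, and reads of paralogs or of overlapping genes, such as Preb with Abhd1 (1169 exon bases) and Ergic2 with Far2 (837), may be split in ways that cannot be seen here. FPKM columns carry letters with no link to the numbers in the labels. Scramble columns were taken as control siRNA and the remaining control columns as control sgRNA.

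Symbols with a mean of at least 1 in an experiment (10883 siRNA, 11218 CRISPRa, 12132 drug) were fitted on log2(value + 1), which understates changes of low genes, with limma 3.58.1 in R 4.3.3 (a term per group, trend, no block, two-sided). The members and lists were chosen with earlier results of these data known, and the direct drug comparisons were added after values were seen. All members may be named. Test values are given for up to 4 raised and 4 lowered members of largest change, a fixed set of members, and up to 3 raised and 3 lowered other pathway genes. Separate cultures are not stated, so p-values cover only the spread between samples, which may be technical. Replicate letters and numbers gave no clear sign that libraries were paired. The check took pairs of libraries from different groups with the same letter (siRNA, CRISPRa) or number (drug). Deviations from the group means correlated above 0.1 in 3 of 24, 1 of 18 and 2 of 30 such pairs. Alternatives were a pseudocount of 0.1, no filter, a mean of at least 5, median-ratio scaling, quantile normalization, removal of a length trend, a replicate block, a fit of only the groups compared, and leaving out each library. Coordinates are those of GRCm38.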

Additional observations from a re-analysis of the deposited data

Results flagged for a closer look

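In groups of 4 libraries, the highest or lowest library was compared with the rest by Dixon's ratio, which chance flags in about 1 of 20 groups. It marked 15 of 192 groups of 4, and 8 of these came from library D of control siRNA in tunicamycin. In that library Sec31a was 66.8 FPKM (61.6 to 61.9 in the others), Sec16a 18.8 (16.9 to 17.01), Tfg 82.3 (73.7 to 74.5), Copz2 26.9 (25.9 to 26.1) and Mcfd2 101.5 (79.3 to 81.7). Tmed3 was 39.8 FPKM there (33.0 to 34.1), Bet1 27.3 (20.7 to 21.4) and Tmed4 38.2 (41.2 to 41.4). Elsewhere Surf4 was 119.7 FPKM in library D of control siRNA in DMSO (115 to 116 in the others). With Son siRNA in DMSO, Copg2 was 7.80 FPKM in library C and Copz2 31.3 in library A. With Son siRNA in tunicamycin, Gbf1 was 14.9 FPKM and Stx5a 41.4 in library C, Ergic3 61.3 in library D and Bet1 16.01 in library B.

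The tunicamycin response differed between Son siRNA and control siRNA by the test of the difference itself for 3 members: Stx5a (-0.35), Preb (-0.20) and Ergic1 (0.19), in log2. These calls were lost in 6, 10 and 11 of the 16 fits without 1 library.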

How the results depend on the processing

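The counts of members called moved by over 1.5 times in 5 of the 14 comparisons. For the difference of tunicamycin responses in the siRNA experiment, 3 became 0 without the filter, 5 under median-ratio scaling and 6 under quantile normalization. For the libraries labelled Son sgRNA in DMSO, 5 became 12 (quantile), 15 (length trend removed) and 2 (only the groups compared); in tunicamycin, 2 became 4 (no filter), 5 (median ratio), 9 (quantile), 12 (length trend) and 0 (replicate block). With only the groups compared, 22 became 37 for tunicamycin with control sgRNA and 32 became 18 in the libraries labelled Son sgRNA. The coat median minus the receptor median moved by over the library SD from 0.0406 to -0.0882 (quantile) and -0.0531 (length trend) for tunicamycin in the libraries labelled Son sgRNA, from -0.20 to -0.27 (quantile) for ponatinib and from -0.29 to -0.23 (quantile) for pyrvinium. Single genes turned sign in 6 cases: Arf4 in tunicamycin with Son sgRNA (0.00185, quantile), Copz1 (-0.0259 and -0.0396) and Ergic1 (-0.0214 and -0.00801) in ponatinib under median-ratio scaling and without the length trend, and Sec13 in proflavine (0.00899, median ratio). The cause was not tested. The replicate block ended both member calls in the libraries labelled Son sgRNA in tunicamycin; its counts were 18, 28, 41, 37 and 4 in the siRNA comparisons, 4, 0, 20, 31 and 0 in the CRISPRa comparisons and 34, 34, 41 and 36 for the drugs. Without 1 library, the members called ranged over 13 to 22, 24 to 28, 39 to 42, 34 to 37 and 0 to 4 in the siRNA comparisons (Son in DMSO, Son in tunicamycin, tunicamycin with control, tunicamycin with Son, difference), over 1 to 11, 0 to 11, 16 to 32, 25 to 34 and 0 to 0 in the same CRISPRa comparisons, and over 33 to 35, 31 to 36, 39 to 41 and 34 to 39 in nintedanib, ponatinib, proflavine and pyrvinium. The coat minus receptor medians ranged, in the same order, over -0.0154 to 0.0166, 0.0425 to 0.0874, -0.167 to -0.0938, -0.0530 to -0.00590 and 0.0107 to 0.0492, over -0.112 to 0.0311, 0.00236 to 0.0833, -0.0970 to -0.0513, -0.132 to 0.129 and -0.00867 to 0.138, and over -0.406 to -0.375, -0.227 to -0.175, -0.153 to -0.116 and -0.308 to -0.269. Depth is unknown, so no counting error can be given for low members such as Sec24a.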
